A study of Mus musculus with 6 samples.

Results

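The 10 imprinted growth regulators described here were followed across 6 Affymetrix arrays of cultured mouse bone marrow stem cells: Ndn, Peg3, Mest, Dlk1, Plagl1 and Sgce, which are known to be expressed from the paternal allele, and Grb10, H19, Meg3 and Cdkn1c, known to be expressed from the maternal allele in most tissues. All their probe sets were taken, 37 of the 45101 on the array; 9 of the genes are among the 18193 with a probe set of their own, and H19 has a shared one. The genes were picked with their difference between these same arrays already known, so the values below describe that difference and do not test it.

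There were 3 arrays of neural crest stem cells (NCSC), which descend from the embryonic neural crest, and 3 of mesenchymal stem cells (MSC), the plastic-adherent marrow cells that can form bone, fat and cartilage. Both were grown from the bone marrow of adult wnt1/CRE-R26R-lacZ mice on a C57BL/6 x SV129 background, labelled female and 10 weeks old. In such animals Cre under Wnt1 control switches on a lacZ reporter in the descendants of the embryonic neural crest, and the MSC came from animals with the same alleles. No treatment was given, and cells had at least 5 passages in Mesencult medium ahead of clonal selection. The samples are labelled as biological replicates without being tied to animals or clones, so spreads and p-values measure only the variation between these samples, and a clone's own pattern cannot be told apart from that of its cell type.

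Genomic imprinting marks the 2 parental copies of a gene with different DNA methylation, so that the copy inherited from 1 parent is expressed and the other is silent. Imprinted genes lie in clusters under shared control regions, and many of them act on fetal growth, with paternally expressed genes often promoting growth and maternally expressed ones often restraining it. In stromal and stem cells several are known for effects on proliferation and on fat and muscle differentiation. The arrays sum both alleles, so a level says nothing about which parental copy was transcribed. In a culture, fewer cells that transcribe a gene and less RNA per cell cannot be told apart.

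The 4 members with the widest gap between the cell types were Grb10, Mest, Meg3 and Ndn. For each, the 300 bases around a RefSeq start (250 before it and 50 after it, build GRCm38.p6) are printed. CpG is the dinucleotide that carries imprinting methylation, and where a gene has several starts the window with the most CpG was taken. Capitals mark each CG.
Ndn, chr7:62348027-62348326, plus strand: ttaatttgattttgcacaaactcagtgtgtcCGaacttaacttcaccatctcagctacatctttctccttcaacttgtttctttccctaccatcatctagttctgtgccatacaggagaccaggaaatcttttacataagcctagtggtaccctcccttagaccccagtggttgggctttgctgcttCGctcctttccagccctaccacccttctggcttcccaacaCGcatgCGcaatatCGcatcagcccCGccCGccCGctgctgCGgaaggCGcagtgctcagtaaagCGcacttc
Grb10, chr11:12037371-12037670, minus strand: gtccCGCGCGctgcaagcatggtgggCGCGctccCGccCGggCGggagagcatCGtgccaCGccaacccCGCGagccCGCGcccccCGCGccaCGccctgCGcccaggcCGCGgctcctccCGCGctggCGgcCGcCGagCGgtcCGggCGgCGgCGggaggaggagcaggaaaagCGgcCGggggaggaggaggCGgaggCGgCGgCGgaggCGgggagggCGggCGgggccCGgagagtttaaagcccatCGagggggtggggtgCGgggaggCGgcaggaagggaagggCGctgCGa
Meg3, chr12:109540746-109541045, plus strand: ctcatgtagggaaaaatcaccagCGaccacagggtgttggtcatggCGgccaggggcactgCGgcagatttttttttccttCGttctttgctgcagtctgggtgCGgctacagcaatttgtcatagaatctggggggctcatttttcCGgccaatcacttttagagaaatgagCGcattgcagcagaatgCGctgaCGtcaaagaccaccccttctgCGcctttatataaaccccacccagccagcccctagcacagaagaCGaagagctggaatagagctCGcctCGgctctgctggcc
Mest, chr6:30737800-30738099, plus strand: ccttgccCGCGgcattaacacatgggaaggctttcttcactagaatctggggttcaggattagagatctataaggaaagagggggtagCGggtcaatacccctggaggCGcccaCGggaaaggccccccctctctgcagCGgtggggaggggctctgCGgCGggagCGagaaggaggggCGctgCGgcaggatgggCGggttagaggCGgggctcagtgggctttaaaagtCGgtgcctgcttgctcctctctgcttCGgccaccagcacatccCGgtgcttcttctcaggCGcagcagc
The printed Grb10 window held 45 CG and a GC content of 80%, and 1.93% of the 32851 RefSeq promoters of this length hold at least as many CG. The Ndn window held 11 CG, a number reached by 41.4% of all promoters. The Meg3 window held 13 and the Mest window 17, numbers reached by 37.9% and 31.4% of promoters, against a median of 7. The letters GGGCGG, searched on both strands, occurred 5 times in the Grb10 window, 2 times in that of Ndn, 1 time in that of Mest and not at all in that of Meg3, and 35.7% of all promoters hold them. RefSeq gave a promoter for 7 of the 10 members, with 11 windows in all, and other starts of Mest, Grb10 and Meg3 are not printed. The Grb10 window not printed held 9 CG, a number reached by 45.8% of promoters, and that of Meg3 held 1. Those of Mest held 8 and 17. The contrast between the printed windows thus depends on the start chosen. Methylation was not measured on these arrays, and whether any printed window carries an imprint was not checked.

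H19 and Mest also carry a microRNA, shown because the H19 probe set is annotated to the microRNA gene Mir675 as well. The mature sequences are RefSeq's on GRCm38.p6, and capitals mark the seed at bases 2 to 8.
mmu-miR-675-5p (within H19, chromosome 7, minus strand): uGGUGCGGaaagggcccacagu
mmu-miR-675-3p (within H19, chromosome 7, minus strand): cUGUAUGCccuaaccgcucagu
mmu-miR-335-5p (within Mest, chromosome 6, plus strand): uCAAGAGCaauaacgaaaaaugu
mmu-miR-335-3p (within Mest, chromosome 6, plus strand): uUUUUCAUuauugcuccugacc
RefSeq places 2 microRNA genes with 3 mature microRNAs within Meg3, 3 genes with 6 within its downstream neighbour Rian and 10 with 19 within Mirg. No mature microRNA was measured here.

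Values are log2 of the deposited GCRMA intensity, a background-corrected probe set brightness. A log2 value above 4 counted as above background, and the lowest value on the arrays was 2.12. On each array 45.2% to 45.5% of probe sets lay above that limit. Arrays of the same cell type correlated at a mean r of 0.991 across the 10501 genes tested and arrays of different types at 0.762. NCSC 3 differed by over 2-fold from the other NCSC arrays in 4.63% to 4.98% of genes, and MSC 2 from the other MSC arrays in 2.62% to 2.69%, while the remaining same-type pairs differed in 0.438% (NCSC) and 0.409% (MSC). Of 8 neural crest markers 7 were measured; 6 were above the limit on all NCSC arrays and 1, Tfap2a, on all MSC arrays, with summed intensities of 27029 to 36646 in NCSC and 183 to 209 in MSC, and Ednrb was at the lowest value throughout. Of 9 mesenchymal stromal markers 8 were measured, and 7 were above the limit on all arrays of each type, with sums of 80989 to 90270 in NCSC and 68756 to 76448 in MSC. These were not the same 7, since Cd248 was under the limit in NCSC (at least 23.3-fold lower) and Nt5e in MSC (NCSC at least 22.8-fold higher). As NCSC minus MSC, Vcam1 and Pdgfra differed by -4.04 and -3.17 and Eng by 4.69. The bright Pdgfrb, Cd44 and Itgav differed by 0.62, 0.31 and 0.15. The macrophage and blood cell list (9 of 10 measured) summed to 821 to 947 in NCSC and 177 to 201 in MSC, with Ptprc, Adgre1, Itgam and Tyrobp under the limit on every array. Cd68 was above the limit on all NCSC arrays and under it on all MSC arrays, at least 27.9-fold higher in NCSC. Lyz2 and Fcer1g were above the limit on every array and higher in NCSC by 1.97 and 0.79. Cd14 went the other way, at 2.19, 2.16 and 2.19 in NCSC and 4.63, 3.96 and 5.15 in MSC. Csf1r lay near the limit and overlapped between the types. The endothelial list (6 of 6 measured) summed to 58.1 to 64.2 in NCSC and 111 to 168 in MSC, with Egfl7 its only member above the limit. The part of these other cells in any result was not tested.

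The libraries went against the sex label. Xist, the RNA that coats the inactive X chromosome of females, was at the lowest value on all 6 arrays (2.12 to 2.13), whereas the Y-linked Eif2s3y ranged over 10.39 to 10.82 in NCSC and 10.87 to 11.29 in MSC, and Uty over 7.68 to 8.13 in NCSC and 8.59 to 8.68 in MSC. The Y-linked Kdm5d was present in NCSC (8.58 to 9.24) and at or near the lowest value in MSC (2.12 to 2.16). Xist at the lowest value and Eif2s3y and Uty above the limit were shared by all 6 arrays, whereas Kdm5d separated the cell types without overlap. No result below can be given without the arrays that go against the label.

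Of the 10 members, 6 had a probe set of their own above the limit on at least 3 arrays and entered the fit across all genes. By the call used for all genes (limma, Benjamini-Hochberg adjusted p under 0.05), 5 of these 6 differed, 2 higher and 3 lower in NCSC, against 64.1% of all genes tested (35% higher and 29.1% lower), and nothing is read from that count because the same difference chose the members. The probe sets of 5 did not overlap between the cell types, as for 71.2% of all genes. Their median difference was -3.41, or -3.29 with values under the limit set to 4, beside 0.06 over all genes on either scale. Peg3, Dlk1 and Cdkn1c stayed under the limit, and H19 has only the shared probe set.

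**Figure D1:**
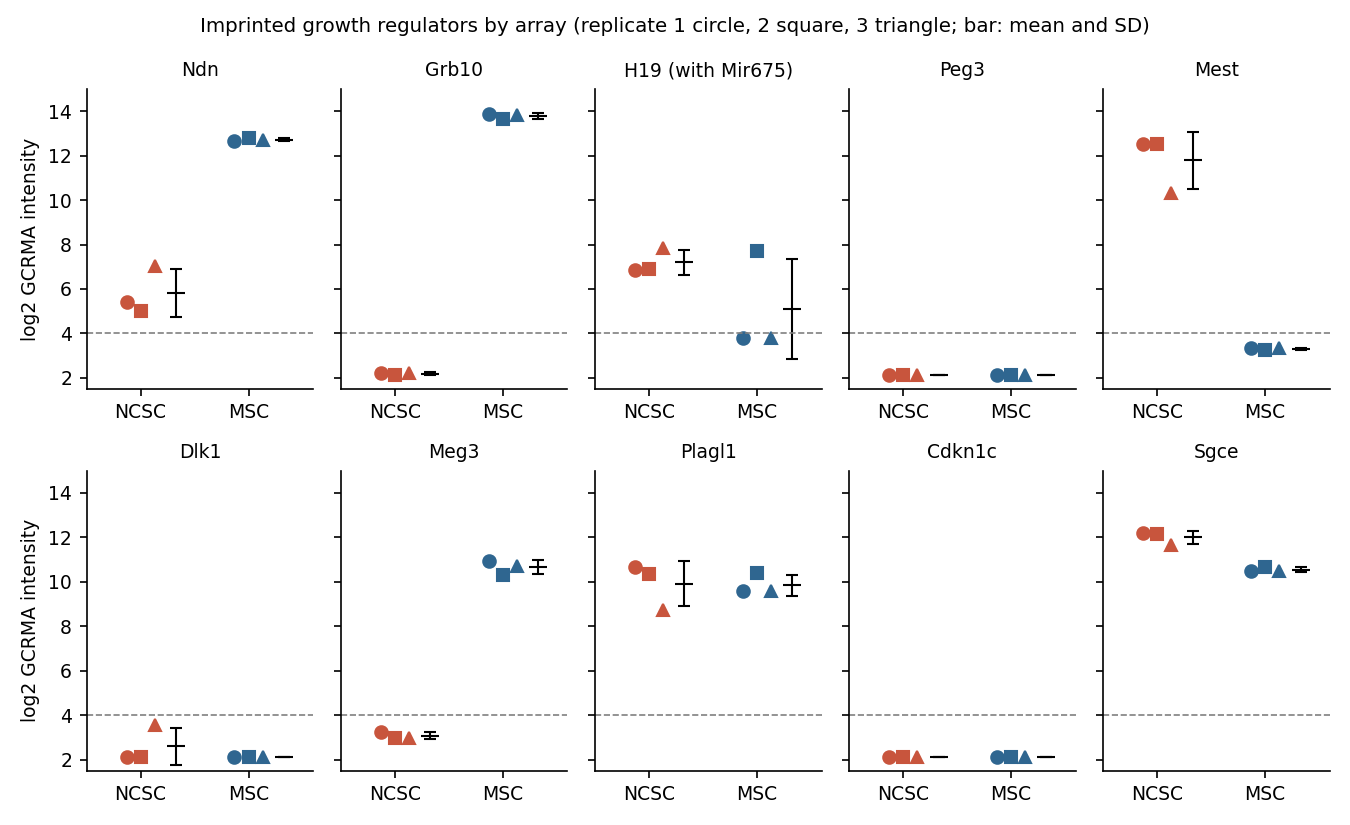
Log2 GCRMA intensity of each of the 10 genes on the 3 NCSC and 3 MSC arrays, in the brightest probe set of each, with the mean and SD beside the points and the limit of 4 dashed. Ndn, Grb10 and Meg3 are high in MSC, Mest is high in NCSC, Sgce is somewhat higher in NCSC, and Peg3, Dlk1 and Cdkn1c lie under the limit.

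Grb10 is an adaptor protein that binds the insulin and IGF1 receptors and restrains their growth signal. Its brightest probe set, 1425458_a_at, read 2.23, 2.12 and 2.22 in the 3 NCSC arrays, against 13.87, 13.63 and 13.82 in the 3 MSC arrays. Grb10 was thus bright on every MSC array and at background on every NCSC array, with a difference of -11.58 (SE 0.09), at least 877-fold lower. The probe set 1430164_a_at read 2.86, 2.86 and 3.42 in NCSC and 5.65, 4.90 and 5.40 in MSC, at least 2.49-fold lower. The probe set 1425457_a_at stayed under the limit on all arrays, at 2.17 in each NCSC array and 2.80, 3.23 and 3.77 in MSC. Both Grb10 probe sets that passed the limit were lower in NCSC without overlap, and the values of 1425457_a_at, all under the limit, set no direction. Grb10 lies on chromosome 11, where the median difference over all tested genes was -0.05.

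Ndn encodes necdin, a protein of the MAGE family that is known to bind E2F1 and the p75 neurotrophin receptor and to slow cell division. Its brightest probe set, 1435382_at, read 5.42, 5.00 and 7.05 in NCSC, against 12.66, 12.81 and 12.71 in MSC. The difference was -6.90 (SE 0.51, 95% confidence interval -8.14 to -5.66), or 119-fold lower in NCSC. NCSC 3 was the highest of the NCSC arrays, 1.84 above the mean of the other NCSC arrays, and still far under every MSC array. Of the 8 Ndn probe sets 5 passed the limit, and all 5 were lower in NCSC without overlap, by -8.73 to -4.52. The widest gap, in 1455792_x_at, was between 2.51, 2.51 and 3.16 in NCSC and 11.39, 11.73 and 11.26 in MSC, at least 176-fold lower. The narrowest, in 1437853_x_at, was between 6.14, 6.09 and 6.15 in NCSC and 10.48, 10.94 and 10.55 in MSC. The other 3 sets were at the lowest value on every array. Probe sets whose name ends in _x_at hold probes that can bind other transcripts, which applies to 3 of the 5.

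Meg3 is a long noncoding RNA, the maternally expressed counterpart of Dlk1 on chromosome 12. Its brightest probe set, 1439380_x_at, read 3.26, 2.98 and 2.98 in NCSC, against 10.94, 10.31 and 10.71 in MSC. The difference was -7.58 (SE 0.18), at least 101-fold lower in NCSC. Of its 11 probe sets 5 passed the limit, and all 5 were lower in NCSC without overlap, by -8.10 to -3.89, with every NCSC value under the limit. The brightest set is of the _x_at kind, whose probes can bind other transcripts, while 1452905_at, with the widest gap, is not. The set 1452905_at read 2.12, 2.41 and 2.31 in NCSC and 10.67, 9.95 and 10.54 in MSC. The dimmest of the 5, 1426758_s_at, read 3.02, 2.86 and 3.24 in NCSC and 7.01, 6.60 and 7.17 in MSC, at least 7.62-fold lower. MSC 2 was the lowest MSC array in each of the 5 sets, by 0.49 to 1.13 under the mean of the other MSC arrays. The other 6 sets stayed under the limit on every array.

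Mest encodes an enzyme of the alpha/beta hydrolase fold that is linked to growth and to the enlargement of fat cells. Its single probe set, 1423294_at, read 12.53, 12.51 and 10.32 in NCSC, against 3.33, 3.27 and 3.33 in MSC. Of the members, Mest had the widest gap in favour of NCSC, 8.48 (SE 0.60), at least 221-fold higher. NCSC 3 was 2.20 under the mean of the other NCSC arrays, and all 3 stayed far above the MSC arrays.

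Sgce encodes epsilon-sarcoglycan, a membrane protein of the dystrophin-associated complex. The probe set 1420688_a_at read 12.19, 12.16 and 11.67 in NCSC, against 10.48, 10.66 and 10.47 in MSC. Sgce was thus well above the limit in both cell types and 2.77-fold higher in NCSC, a difference of 1.47 (SE 0.16, 95% confidence interval 1.08 to 1.86). Its other probe set, 1443518_at, was under the limit throughout, at 2.14, 2.16 and 2.37 in NCSC and 2.13, 2.14 and 2.14 in MSC.

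Plagl1, also called Zac1, encodes a zinc finger transcription factor that can arrest the cell cycle. Its 1426208_x_at read 10.67, 10.33 and 8.75 in NCSC, against 9.57, 10.38 and 9.57 in MSC. The groups overlapped, and the difference of 0.08 (SE 0.53) had a 95% confidence interval of -1.21 to 1.36, which leaves room for a change of over 2-fold either way. NCSC 3 was 1.75 under the other NCSC arrays and MSC 2 was 0.81 above the other MSC arrays. Without NCSC 1 the difference was -0.30, and without both NCSC 3 and MSC 2 it was 0.93 and past the threshold. The other 2 Plagl1 sets were at the lowest value on every array. The only set with signal is thus of the _x_at kind, whose probes can bind other transcripts.

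H19 is a long noncoding RNA, the maternally expressed counterpart of the growth factor gene Igf2. The only probe set that names it, 1448194_a_at, names Mir675 as well and so stood outside the fit. It read 6.85, 6.90 and 7.83 in NCSC, against 3.78, 7.72 and 3.79 in MSC. The groups overlapped because MSC 2 was 3.93 above the mean of the other MSC arrays, both of which were under the limit. The mean difference was 2.10. For Igf2, a paternally expressed growth factor, 1448152_at read 3.68, 3.64 and 3.68 in NCSC and 3.98, 5.94 and 3.73 in MSC. As for H19, MSC 2 was the only MSC array above the limit. Unlike for H19, every NCSC array was under it for Igf2. A second Igf2 set was at the lowest value on all arrays.

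The remaining 3 members gave no level above background. Peg3, a zinc finger protein known for roles in maternal behaviour and in stem cells, was at 2.12 on all 6 arrays in each of 5 probe sets. Cdkn1c, which encodes the cyclin-dependent kinase inhibitor p57, was at 2.12 on all 6 arrays in its 1 probe set. Dlk1, a membrane protein with EGF-like repeats that restrains fat cell formation, read 2.13, 2.13 and 3.56 in NCSC and 2.13 on each MSC array in 1449939_s_at. Its second probe set was at 2.12 throughout. Such values are bounds set by background, and they do not show that the transcripts were absent.

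**Figure D2:**
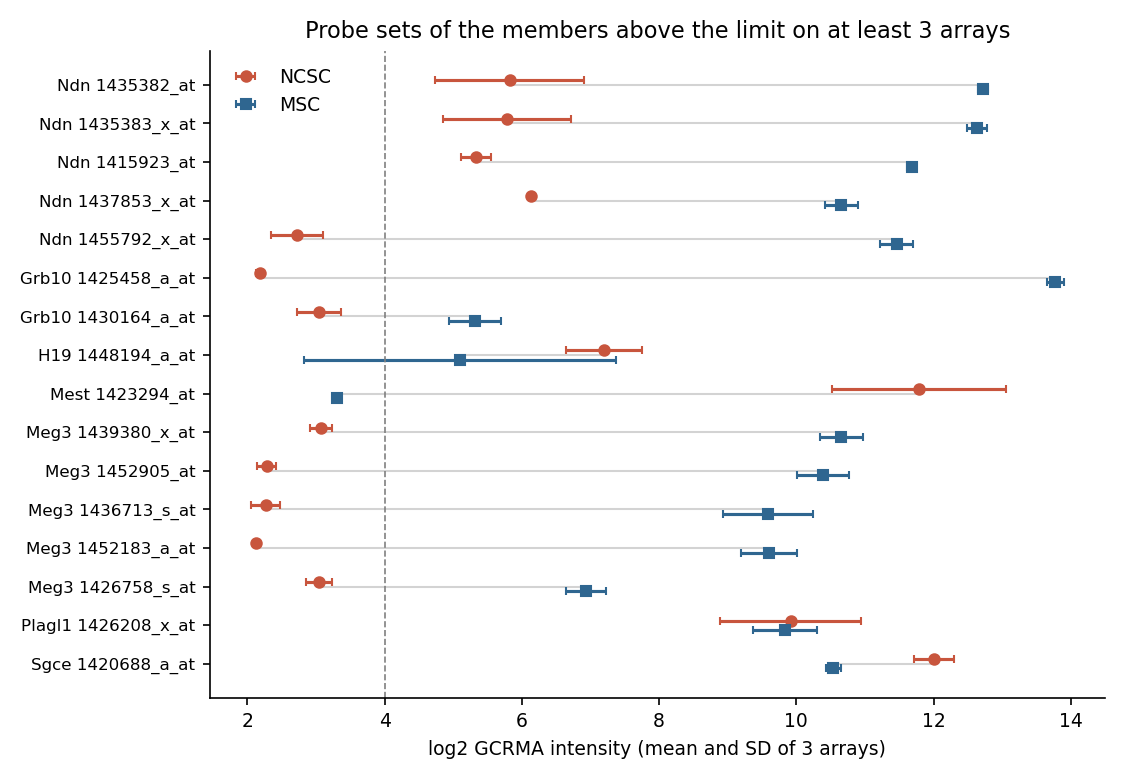
Mean and SD of log2 GCRMA intensity over 3 arrays for the 16 probe sets that were above the limit of 4 (dashed) on at least 3 arrays, NCSC as circles and MSC as squares. All 5 Ndn, both Grb10 and all 5 Meg3 probe sets lie lower in NCSC, and the H19 and Plagl1 sets overlap.

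By parental allele, 4 of the 6 paternally expressed members were tested, of which Mest and Sgce were higher in NCSC, Ndn was lower and Plagl1 was not called, with a median difference of 0.77. Both tested maternally expressed members, Grb10 and Meg3, were lower. Their NCSC values were all under the limit, and with values under it set to 4 their median difference was -8.22. A list of 64 other imprinted genes was set beside the members. Among the others, 18 maternally expressed genes were tested, 9 higher, 4 lower and 5 not called in NCSC, with a median of 0.23. The 7 paternally expressed genes tested were 2 higher, 4 lower and 1 not called, with a median of -0.54. Neither median had the sign of the members' median for its allele. However, most of these maternal genes, and none of the 7 paternal genes, were listed as imprinted in some tissues only. The split by allele thus overlaps with that by tissue. Maternal genes listed without that limit were Rian, Commd1, Copg2, H13 and Igf2r, at -8.80, -0.64, -0.31, -0.09 and 0.66. Counting members and others together, 20 of 39 maternally expressed genes were tested, 9 higher, 6 lower and 5 not called in NCSC, with a median difference of 0.09. Of 33 paternally expressed genes 11 were tested, 4 higher, 5 lower and 2 not called, with a median of 0.08. These pooled medians hold members that were chosen for their difference. Among the other imprinted genes alone, 27 were tested, and 11 were higher, 8 lower and 8 not called by limma with Benjamini-Hochberg adjustment, or 70.4% called beside 64.1% of all genes, with a median of 0.15. With each chromosome's median removed the split was 7 higher and 9 lower. Of the 12 listed as imprinted without limit to some tissues, 3 were higher, 7 lower and 2 not called. Of the 15 listed with tissue-limited imprinting, 8 were higher, 1 lower and 6 not called. These counts were not tested against each other, and the tissue labels were not checked for these cells.

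The neighbours within each cluster did not all move with the member. Those listed as imprinted in some tissues only were Ube3a, Atp10a, Cobl, Ppp1r9a, Pon2, Pon3, Cd81, Tssc4, Nap1l4, Osbpl5 and Dhcr7 among the tested ones. In the Ndn cluster on chromosome 7, Peg12, a paternally expressed gene known as Frat3 that promotes Wnt signalling, read 3.27, 3.25 and 4.30 in NCSC and 7.03, 6.87 and 7.55 in MSC. Peg12 fell in NCSC by at least 8.3-fold (difference -3.55, SE 0.33, limma adjusted p = 0.000201), the same direction as Ndn. Snrpn, the paternally expressed splicing protein gene of the same cluster, shares its brighter probe sets with Snurf. The set 1435716_x_at named for both read 8.98, 9.01 and 9.29 in NCSC and 9.05, 9.08 and 8.97 in MSC, with overlap. The ubiquitin ligase gene Ube3a, listed as maternally expressed in some tissues only, averaged 13.50 ± 0.06 in NCSC and 13.09 ± 0.06 in MSC (SD, n = 3 each). Ube3a was higher by 0.41 (limma adjusted p = 0.00444), but not past the threshold with the chromosome's median removed (0.10, limma adjusted p = 0.318). Atp10a, a phospholipid flippase gene of the cluster, differed by 0.10 (limma adjusted p = 0.591).

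On chromosome 12 the maternally expressed noncoding RNA Rian, transcribed downstream of Meg3, read 2.12 in each NCSC array and 11.33, 10.22 and 11.21 in MSC. Rian fell in NCSC by at least 121-fold (difference -8.80, SE 0.29, limma adjusted p = 2.39e-06), and its second probe set read 2.38, 2.46 and 2.38 in NCSC and 8.80, 7.46 and 8.74 in MSC. As for Meg3, MSC 2 was the lowest MSC array. Mirg, the next noncoding RNA of the cluster, stayed under the limit on all arrays. Beside Grb10 lies Cobl, an actin nucleator gene listed as maternally expressed in some tissues only. Cobl averaged 6.75 ± 0.38 in NCSC and 6.67 ± 0.28 in MSC (SD, n = 3 each) and was not called (limma adjusted p = 0.784). Without both NCSC 3 and MSC 2 the Cobl difference was 0.46 (limma adjusted p = 0.00731).

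Beside Mest on chromosome 6, Copg2, a coat protein gene of Golgi vesicles, fell by 0.31 in NCSC (limma adjusted p = 0.0275). That call was lost without MSC 1 or MSC 3 (limma adjusted p up to 0.0848), and the difference was 0.0079 with the chromosome's median of -0.32 removed. In the Peg10 and Sgce cluster on the same chromosome, the paraoxonase gene Pon3 averaged 8.09 ± 0.18 in NCSC and 10.80 ± 0.10 in MSC (SD, n = 3 each) and fell by 2.71 (limma adjusted p = 7.37e-06). Its relative Pon2 differed by 0.07 and was not called (limma adjusted p = 0.467), although it was 0.39 higher with the chromosome's median removed (limma adjusted p = 0.00685). Ppp1r9a, the actin-binding neurabin gene, averaged 9.05 ± 0.15 in NCSC and 7.10 ± 0.68 in MSC (SD, n = 3 each) and rose by 1.95 (limma adjusted p = 0.00275). Peg10, the retrotransposon-derived gene next to Sgce, was at the lowest value on all arrays.

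In the Kcnq1 cluster on chromosome 7, which holds Cdkn1c, the paternally expressed antisense RNA Kcnq1ot1 averaged 6.96 ± 0.20 in NCSC and 8.75 ± 0.57 in MSC (SD, n = 3 each). Kcnq1ot1 is known to silence the cluster in cis, and it fell by 1.79 in NCSC (limma adjusted p = 0.00224), lower in all 4 of its kept probe sets. Dhcr7, the last enzyme of cholesterol synthesis, averaged 8.63 ± 0.37 in NCSC and 4.83 ± 0.62 in MSC (SD, n = 3 each) and rose by 3.80 (limma adjusted p = 0.000177). The tetraspanin gene Cd81, the little-characterised Tssc4 and the histone chaperone gene Nap1l4 rose by 0.37, 0.37 and 0.46 (limma adjusted p = 0.0275, 0.0142 and 0.00215). None of these 3 passed with the chromosome's median of 0.31 removed (limma adjusted p = 0.69, 0.594 and 0.125). The Cd81 call was also lost without NCSC 1, NCSC 2, MSC 1 or MSC 3, with a limma adjusted p of up to 0.092. The sterol-binding Osbpl5 differed by 0.03 and was not called (limma adjusted p = 0.769), or by -0.28 with the chromosome's median removed (limma adjusted p = 0.0244). Phlda2, another growth-restraining gene of the cluster, was at the lowest value throughout.

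**Figure D3:**
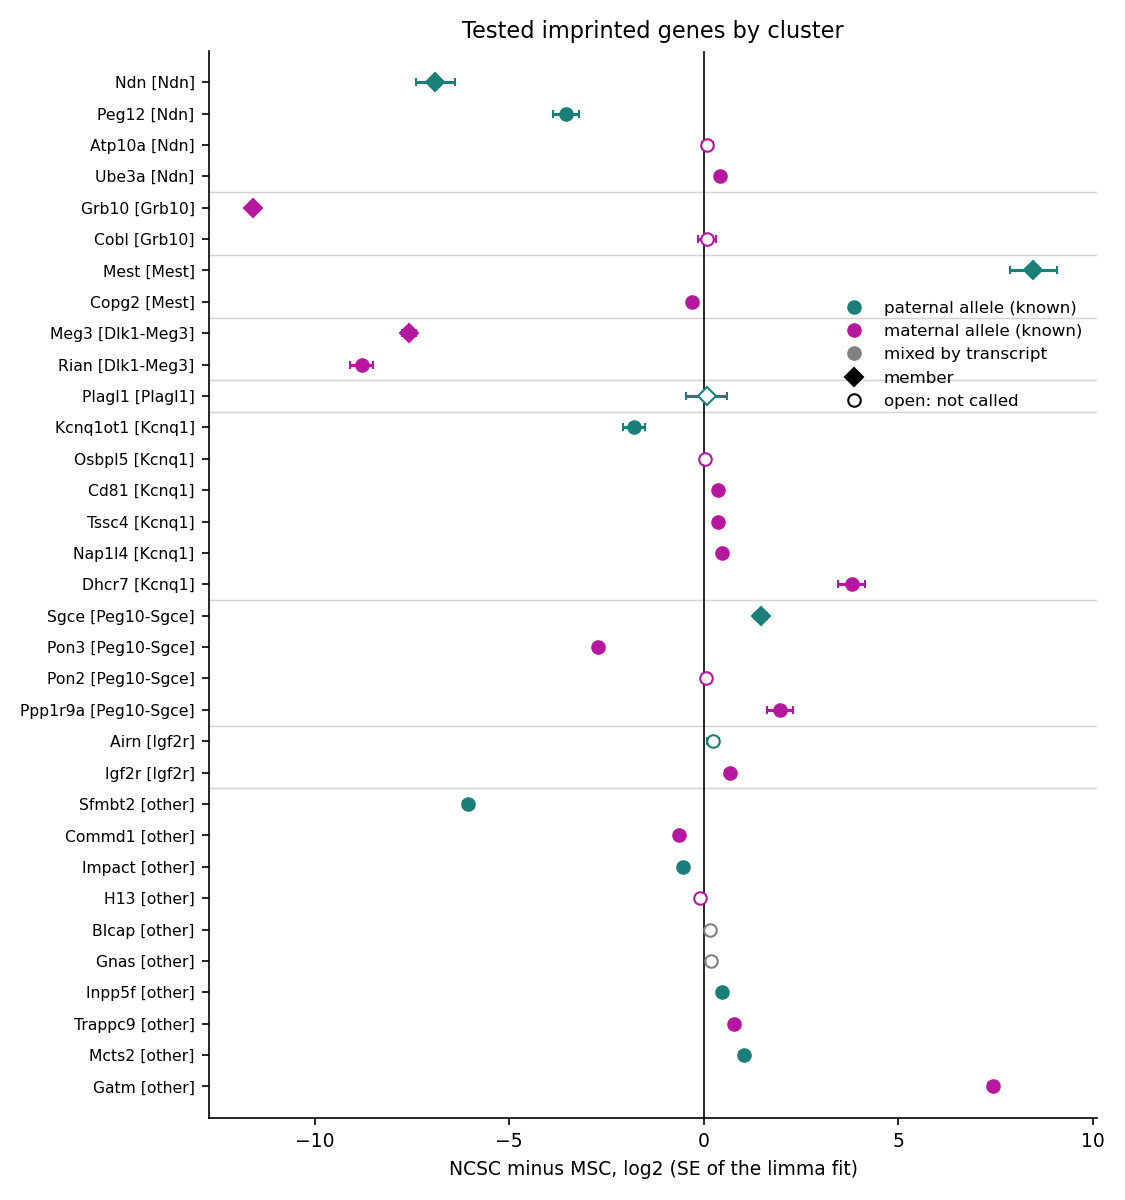
Difference of NCSC minus MSC in log2 with its SE for the 33 tested imprinted genes, grouped by cluster, with members as diamonds, the known parental allele by colour and genes not called as open symbols. Rian lies low beside Meg3 and Peg12 lies low beside Ndn, while Cobl and Copg2 lie within 0.4 of 0 beside Grb10 and Mest. Beside Sgce, Pon2 lies within 0.4 of 0, Pon3 lies low at -2.71 and Ppp1r9a lies high at 1.95.

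Outside the members' clusters the widest gaps were in Gatm and Sfmbt2. Gatm, the first enzyme of creatine synthesis, averaged 9.57 ± 0.24 in NCSC and 2.13 ± 0.002 in MSC (SD, n = 3 each) and rose by at least 47.5-fold (limma adjusted p = 1.55e-07). Sfmbt2, a polycomb group protein, averaged 2.20 ± 0.07 in NCSC and 8.27 ± 0.17 in MSC (SD, n = 3 each) and fell by at least 19.3-fold (limma adjusted p = 1.73e-07). Igf2r, the receptor that clears IGF2, rose by 0.66 (limma adjusted p = 0.00265), while Airn, the antisense RNA that silences its paternal copy, differed by 0.24 in its brightest probe set and was not called (limma adjusted p = 0.202). The 3 kept Airn sets disagreed: each on its own, 1446095_at was 1.76 lower and 1456139_at 1.26 lower in NCSC by limma (differences -1.76 and -1.26, adjusted p = 0.046 and 0.0218 over all kept probe sets). Mcts2, Trappc9 and Inpp5f rose by 1.04, 0.77 and 0.47 (limma adjusted p = 0.000892, 0.000548 and 0.00863), the last of them not with the chromosome's median removed (limma adjusted p = 0.234). Commd1 and Impact fell by 0.64 and 0.54 (limma adjusted p = 0.00277 and 0.00436). As the mean of its 2 kept probe sets, Impact differed by -0.22 and was not past the threshold (limma adjusted p = 0.0682). The dimmer of these sets, 1446750_at, differed by 0.09 on its own (limma adjusted p = 0.462 over all kept probe sets).

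Of 16 genes that set or protect imprints, 11 were tested, 1 higher, 2 lower and 8 not called, or 27.3% called beside 64.1% of all genes, with a median of -0.21. Dnmt3a, a DNA methyltransferase that sets new methylation, averaged 8.86 ± 0.17 in NCSC and 7.63 ± 0.04 in MSC (SD, n = 3 each) and rose by 1.23 (limma adjusted p = 0.000155). Hells, a chromatin remodeller needed for DNA methylation, fell by 1.09 (limma adjusted p = 0.027), and Mbd3, a subunit of the NuRD complex, fell by 0.53 (limma adjusted p = 0.0014). The Hells call was lost without NCSC 1, NCSC 2, MSC 1 or MSC 3 (limma adjusted p up to 0.0878), and the Mbd3 call with the chromosome's median removed (limma adjusted p = 0.0798). Dnmt1, the maintenance methyltransferase, and its partner Uhrf1 differed by -0.58 and -0.79 and were not called (limma adjusted p = 0.0633 and 0.0759). The count moved with the arrays and the setting: without NCSC 3, 5 of the 11 were called (45.5%, beside 68.4% of all genes), and without MSC 2 as well 8 were (72.7%, beside 74%).

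Of 22 known partners and targets of the members, 20 were tested, 8 higher, 6 lower and 6 not called, or 70% called beside 64.1% of all genes, with a median of 0.28. For Sgce, beta-sarcoglycan (Sgcb) averaged 13.12 ± 0.27 in NCSC and 10.45 ± 0.05 in MSC (SD, n = 3 each) and rose by 2.67 (limma adjusted p = 2.17e-05). Dystroglycan (Dag1), the core of the same complex, rose by 2.20 (limma adjusted p = 2.15e-06), while sarcospan (Sspn) differed by 0.08 and was not called (limma adjusted p = 0.556). For Ndn, the p75 neurotrophin receptor gene Ngfr, which is also a neural crest marker, averaged 12.01 ± 0.54 in NCSC and 2.89 ± 0.32 in MSC (SD, n = 3 each) and rose by at least 257-fold (limma adjusted p = 2.37e-06). E2f1 differed by 0.36 and was not called (limma adjusted p = 0.159). For Dlk1, the receptor gene Notch1 rose by 2.60 (limma adjusted p = 6.63e-06). For Plagl1, its target Adcyap1r1, a receptor for the peptide PACAP, rose by at least 3.43-fold (limma adjusted p = 0.00174). For Grb10, the receptor genes Igf1r and Insr fell by 0.62 and 0.90 (limma adjusted p = 0.00373 and 0.00133), and the docking protein genes Irs1 and Irs2 were not called (0.57 and 0.24, limma adjusted p = 0.0739 and 0.207). Among the cell cycle partners of p57, Cdk2 and Cdk4 fell by 1.00 and 0.80 (limma adjusted p = 0.00259 and 0.000752), Cdk6 and Ccnd1 rose by 0.38 and 0.33 (limma adjusted p = 0.027 and 0.03), and Ccne1 was not called (-0.34, limma adjusted p = 0.29).

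The nearest tested genes outside the imprinted lists, 3 on each side of each member, gave 49 genes, of which 30 were called, 13 higher and 17 lower. That is 61.2%, beside 64.1% of all genes. Only genes on the lists used here were left out, and whether any of these neighbours is itself imprinted was not checked. Members close together share neighbours: Dlk1 and Meg3 have the same 6, of which 1 was called, and H19 and Cdkn1c share 5. Beside Ndn, A230006K03Rik fell by at least 23.1-fold (limma adjusted p = 1.33e-06) and averaged 2.28 ± 0.15 in NCSC and 8.53 ± 0.33 in MSC (SD, n = 3 each). B230209E15Rik, on the same side, fell by at least 10.0-fold (limma adjusted p = 0.00012; named after its value was seen). LOC102631979, which RefSeq places within the interval of Grb10, fell by at least 18.3-fold (limma adjusted p = 5.02e-06). Beside Sgce, Pdk4, a kinase that holds back glucose oxidation, fell by at least 592-fold (limma adjusted p = 1.2e-08), opposite to Sgce. Beside Mest, Podxl, a cell surface sialomucin, rose by at least 12.9-fold (limma adjusted p = 8.98e-05). Beside Cdkn1c, the receptor gene Mrgpre rose by at least 7.43-fold (limma adjusted p = 0.000128), and beside H19, R74862 rose by 3.10 (limma adjusted p = 0.000345). Beside Plagl1, where all 6 neighbours were called, the fucosidase gene Fuca2 rose by 0.92 (limma adjusted p = 0.000397), and beside Peg3 the zinc finger gene Zfp954 fell by 1.02 (limma adjusted p = 0.00578). Beside Dlk1 and Meg3, the phosphatase subunit gene Ppp2r5c fell by 0.84 (limma adjusted p = 0.000218), but its 7 probe sets disagreed, and the mean over them was 0.35 higher in NCSC.

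**Figure D4:**
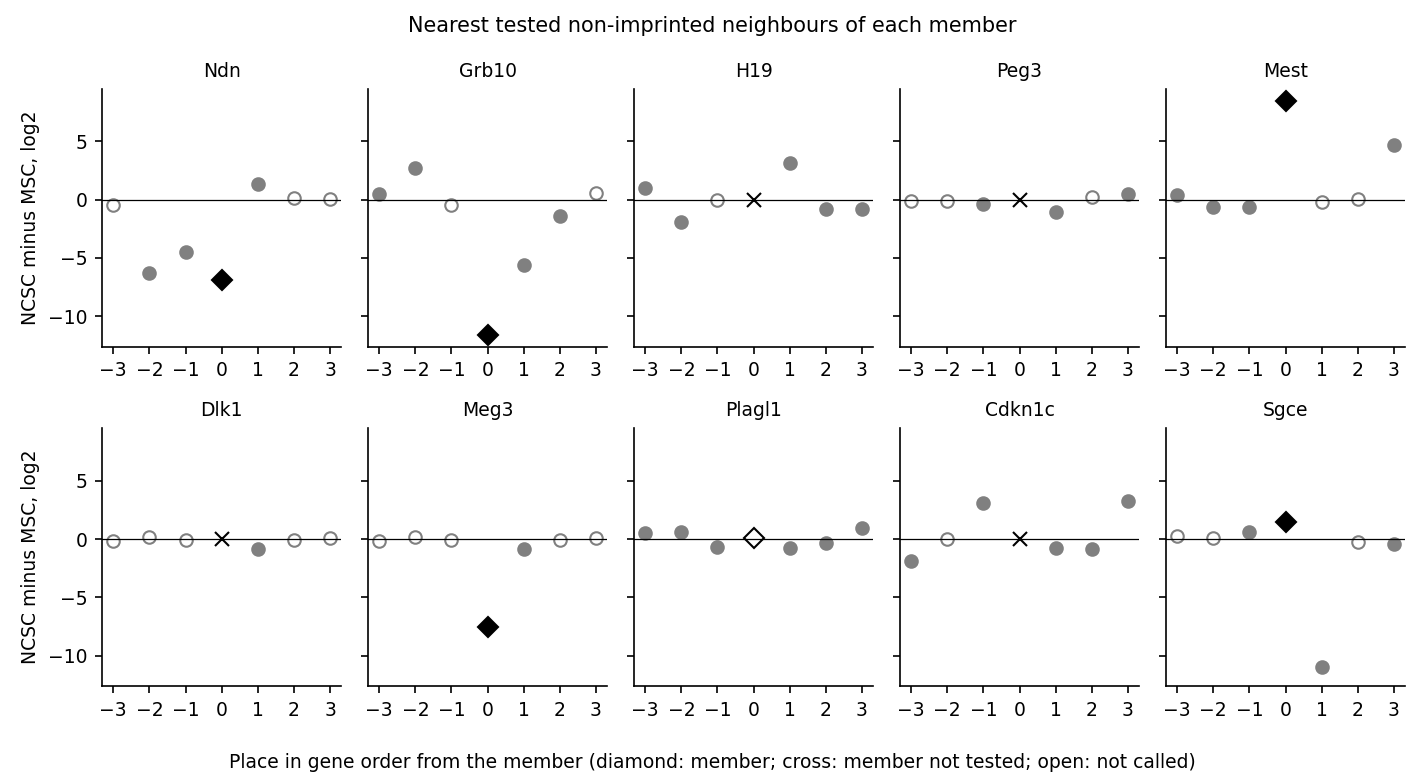
Difference of NCSC minus MSC in log2 for the 3 nearest tested genes on each side of each member, by place in gene order, with the member at 0 as a diamond (a cross where it was not tested) and genes not called as open circles. The low genes beside Ndn and Grb10 and the low gene beside Sgce (Pdk4) stand apart from neighbours that lie mostly between -2 and 3. Non-imprinted in the title means only outside the imprinted lists used here.

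Ndn, Grb10 and Mest were set against all tested genes for likeness, measured as the root mean square distance between the 6 log2 values after centring. Nearest to Ndn was the non-muscle myosin gene Myh10 (distance 0.19), followed by the glycogen-binding Stbd1 and the RNA-binding Igf2bp3, whose NCSC means were under the limit. The 3 nearest to Grb10, the proteoglycan gene Vcan, the growth factor gene Fgf7 and the matrix gene Fbln2, were like Grb10 under the limit on the NCSC arrays, so they have no order among themselves. The 3 nearest to Mest, Fam107a, the actin-binding Nebl and the Wnt antagonist Frzb, were like Mest under the limit on the MSC arrays and have no order either. These distances cover 6 arrays of 2 cell types, so that they mainly reflect the gap between the types.

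**Figure D5:**
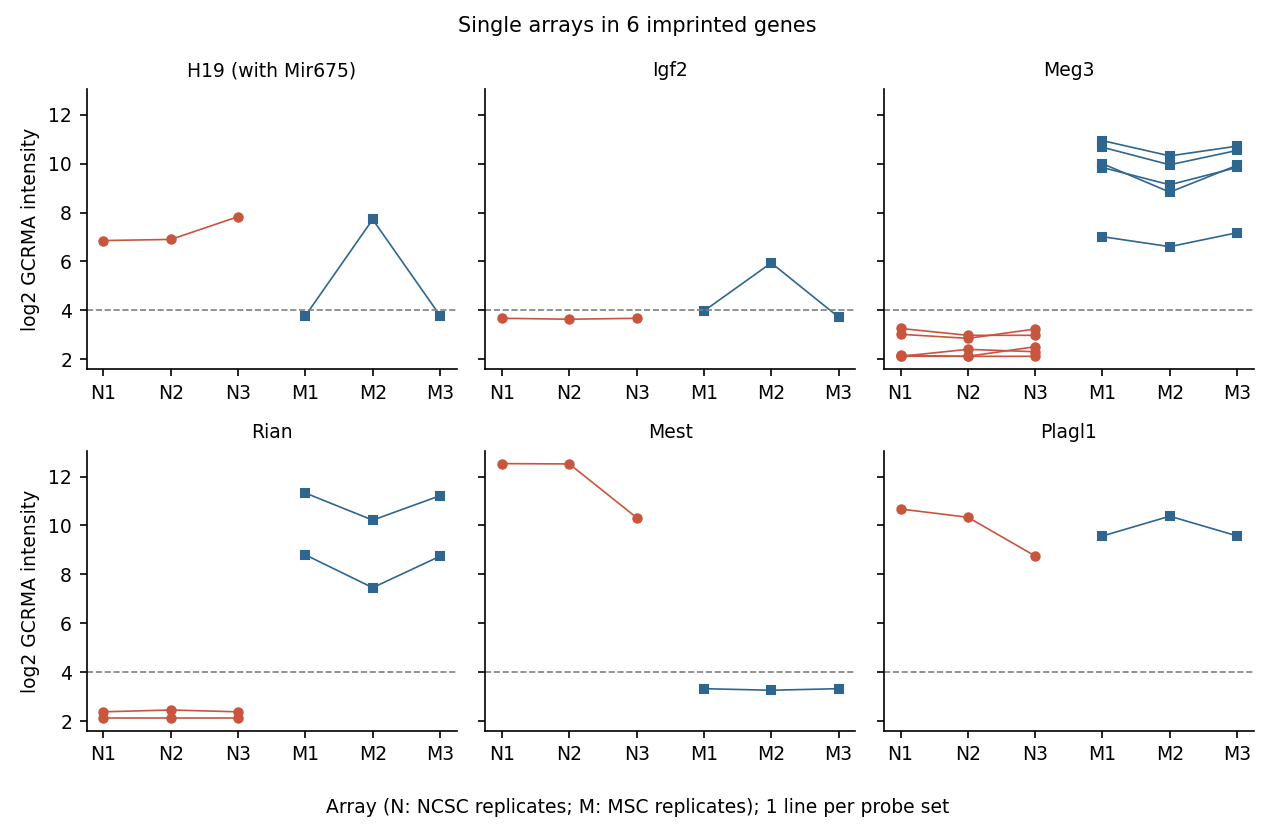
Log2 GCRMA intensity on each array (N1 to N3, NCSC; M1 to M3, MSC) for 6 imprinted genes, with a line joining the values of 1 probe set and the limit of 4 dashed. M2 stands above the other MSC arrays in H19 and Igf2 and below them in the 5 Meg3 and 2 Rian probe sets shown, those above the limit on at least 3 arrays, and N3 stands below the other NCSC arrays in Mest and Plagl1.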

How the data were processed

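The deposited table holds 1 intensity per probe set and array, a linear value that GCRMA produced (per the submitters' processing notes; its version is not given in the sources used here). The plan had foreseen log2 values, so log2 of the deposited intensities was taken first, with no further normalization. Column medians were 7.27, 7.37 and 7.39 for NCSC and 7.40, 7.49 and 7.29 for MSC, on the linear scale. The platform annotation gave 1 gene for 34945 probe sets, several for 932 and none for 9160, and 64 were controls. A probe set was kept with a log2 value above 4 on at least 3 of 6 arrays, and a gene was represented by its kept probe set with the highest mean, which left 10501 genes.

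NCSC minus MSC was fitted with limma 3.58.1 (lmFit and eBayes, two-sided) in R 4.3.3, with Benjamini-Hochberg adjustment over all genes tested and calls at an adjusted p under 0.05; the script was tested on simulated data. Where a group's mean was at or under 4, the fold is a bound against values under 4 set to 4. Intervals are 95%. The number of arrays limits the precision, and an exact permutation test of 3 against 3 cannot give a p below 0.1. Members and lists were chosen with earlier results of these data known. The genes named are all members, the tested imprinted genes of their clusters, and the called others with the largest differences (up to 10 imprinted, up to 5 each of the maintenance and partner lists). Also named are the called neighbour with the largest difference for each member, and the 3 genes most alike to each of Ndn, Grb10 and Mest. Markers of cell type and sex are named apart from this rule. Names outside that rule (Snrpn, Mirg, Peg10, Phlda2, Igf2, Airn, Dnmt1, Uhrf1, Sspn, E2f1, Igf1r, Insr, Irs1, Irs2, Cdk2, Cdk4, Cdk6, Ccnd1 and Ccne1) were added after their values were seen. The parental allele, cluster, tissue limit and role of each gene are textbook knowledge. Promoter and microRNA sequences are RefSeq's (GRCm38.p6). Alternatives changed the filter, the probe set rule, the prior, array weights, the replicate block, quantile normalization, a floor, an added constant of 16, chromosome medians and the arrays left out.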

Additional observations from a re-analysis of the deposited data

How the results depend on the processing

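Besides 1 setting chosen after seeing the data (probe sets of several genes counted under the listed gene), 18 others were tried. The members called were 5 in all of these settings, except 6 with array weights and with MSC 2 and NCSC 3 both left out. Imprint maintenance calls, 3 as reported, were 5 with a trended and robust prior, 9 with array weights, 5 with chromosome medians removed (2 higher and 3 lower) and 8 without MSC 2 and NCSC 3. Leaving out 1 array at a time gave 2 to 5 imprint maintenance calls, 5706 to 7184 calls over all genes, 17 to 20 other imprinted, 10 to 14 partner and 27 to 30 neighbour calls. Same-numbered samples of the 2 cell types did not deviate together (correlations of -0.10, 0.06 and 0.07, with 2 of 6 samples most like their own number). So few samples cannot show whether the numbers pair anything, and the labels do not say. The replicate block stays an alternative: with it, 6257 genes, 5 members, 17 other imprinted, 11 partner, 28 neighbour and 4 maintenance genes were called. Removing chromosome medians turned Copg2 to 0.0079 and Osbpl5 to -0.28. Ppp2r5c turned to 0.35 as the mean of its probe sets and to 1.10 where each kept probe set was tested on its own and the smallest p taken. Plagl1 was between -0.30 and 0.66 with 1 array left out, below 0 without NCSC 1 (-0.30), NCSC 2 (-0.13), MSC 1 (-0.06) or MSC 3 (-0.05). Differences of Grb10 ranged from -11.67 to -6.93, Ndn from -7.51 to -6.34, Meg3 from -8.00 to -6.06, Mest from 7.10 to 9.21 and Sgce from 1.38 to 1.79; the cause of these shifts was not tested beyond the settings themselves. Values at or near 2.12 carry no order, so Peg3, Cdkn1c and Dlk1 cannot be compared between the cell types.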
